A study of Rattus norvegicus with 9 samples.

Results

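A set of 10 genes that mark macrophages was followed in the wall of the rat superior mesenteric artery (SMA), which feeds most of the small intestine. They were Cd68, Cd163, Mrc1, Csf1r, Lyz2, Cd14, C1qa, C1qb, C1qc and Folr2. They were chosen by symbol, and all 10 were found among the 37203 gene symbols of the count table. RNA was sequenced from 9 SMAs of 8-week-old Sprague-Dawley rats of 220 to 240 g, 3 of normal rats, 3 after 1 h of ischemia and 3 after 4 h of ischemia. Ischemia was brought on by drawing blood through a femoral artery (hemorrhage). The rats of the ischemia model were anaesthetised with sodium pentobarbital, and whether the normal rats were is not stated in the sources used here. No altered gene or other agent is named for any group, and the groups shared strain, age and tissue. Whole arteries were used, so each value mixes every cell type of the wall and of any tissue left around it.

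Macrophages live in the outer coat of arteries, where most of them take up debris, iron and apoptotic cells, and blood monocytes can join them after injury. Their survival depends on the receptor that Csf1r encodes. Resident cells of the vessel wall are known for Mrc1, Folr2, Cd163 and C1q, while Lyz2 and Cd14 are also made by monocytes and neutrophils and Cd14 by some non-blood cells. In bulk RNA, fewer cells of a type and less RNA per cell cannot be told apart.

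Total counts ran from 13114273 to 15504240 per library. Levels are given as CPM, the counts of a gene per unit of library size after TMM scaling (factors 0.814 to 1.22), and errors beside means are SD over 3 libraries. Some libraries stood apart in their cell type genes in ways the groups did not explain. Summed over 12 smooth muscle genes, levels ran from 12826 CPM in normal replicate 1 and 14459 CPM in 1 h replicate 3 to 79908 CPM in 4 h replicate 1. Summed over 13 lymphocyte genes, the same normal and 1 h libraries held 71.7 and 86.7 CPM, against 6.37 to 18.2 CPM in the other 7. The 10 macrophage genes, summed, held 247 CPM in normal replicate 1 and 253 CPM in 1 h replicate 3, their highest, and 62.4 CPM in normal replicate 2 and 48.7 CPM in 4 h replicate 1, their lowest. The other 5 libraries lay between 85.1 and 145 CPM. Smooth muscle genes were thus expressed in all 9 libraries, but genes of other tissues differed widely too. Summed over 23 peripheral nerve genes, 1 h replicates 1 and 3 held 10667 and 11543 CPM, and 4 h replicate 3 held 11341 CPM. The remaining libraries held 244 to 4483 CPM. Adipocyte genes, summed, ranged between 403 CPM (normal replicate 3) and 2416 CPM (normal replicate 1). These sums do not show how much of each library came from the artery wall.

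**Figure D1:**
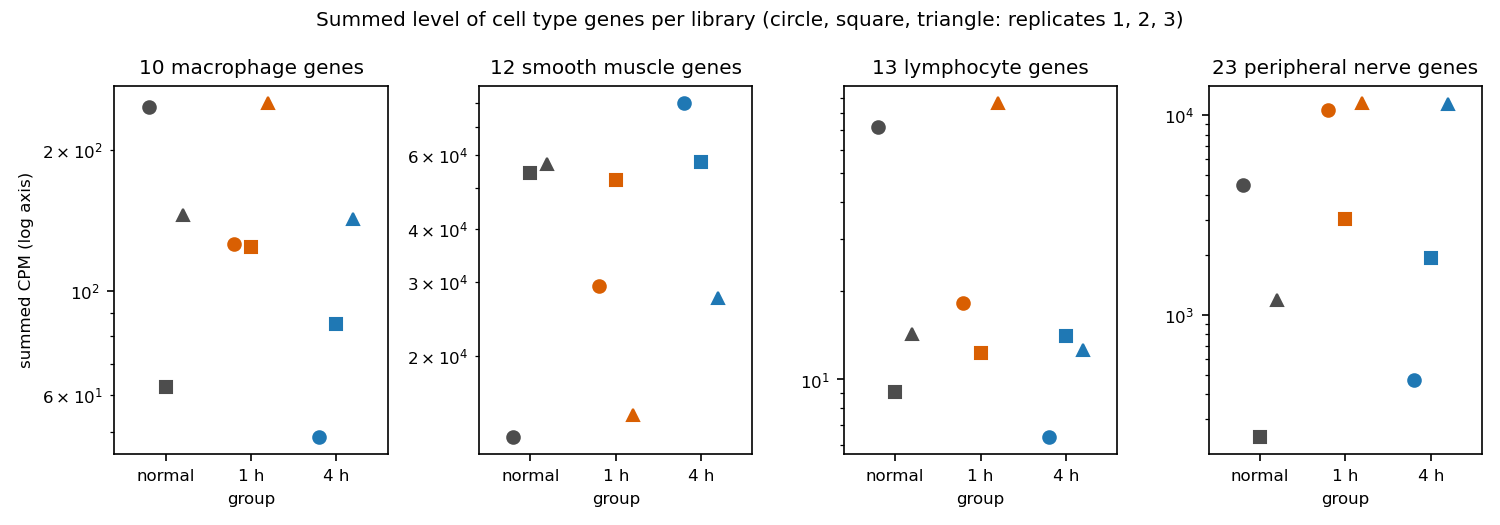
Summed CPM (log axis) of the 10 macrophage genes, 12 smooth muscle genes, 13 lymphocyte genes and 23 peripheral nerve genes in each of the 9 libraries, by group, with circles, squares and triangles for replicates 1, 2 and 3. Normal replicate 1 and 1 h replicate 3 are the highest for macrophage and lymphocyte genes and the lowest for smooth muscle genes.

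All 10 macrophage genes passed the filter on low counts, and 0 of them was called in any comparison. Calling took an adjusted p below 0.05 (Benjamini-Hochberg over 15482 genes, edgeR's quasi-likelihood test) with a fold change over 1.5. edgeR called few genes: 0.0581% of those tested at 1 h against normal, 0.0904% at 4 h against normal, 0% at 4 h against 1 h and 0.0388% over the 3 groups together. DESeq2, which called 2.71%, 2.33%, 0% and 2.59% of its genes in these 4 comparisons, called 0 of the 10 too. By the unadjusted p under 0.05, 1 of 10 passed at 1 h against normal, where 16.7% of all genes did, 0 of 10 at 4 h against normal (12.4% of all genes), and 1 of 10 at 4 h against 1 h (2.58% of all genes). The gene was Cd14 each time.

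The fitted changes leaned one way at 4 h without passing the test. At 4 h all 10 were lower than normal, with a median log2 fold change of -0.70 against 0.03 over all genes tested. All 10 were also lower at 4 h than at 1 h, with a median of -0.77 against -0.04. At 1 h 7 of 10 were lower than normal and the median, -0.07, was near that of all genes, -0.01. Since most of these genes, Cd14 and in part Cd68 apart, moved together from library to library, they are not 10 separate readings of a change. The lean also moved with single libraries. The median at 4 h was -0.35, with 8 of 10 lower, without normal replicate 1, and -1.11 without normal replicate 2. It was -1.26 without 4 h replicate 3. At 4 h against 1 h the median was -0.33 without 1 h replicate 3, -0.47 without 4 h replicate 1 and -1.36 without 4 h replicate 3. Genes of other cell types also leaned at 4 h against normal. Lower were 11 of 11 endothelial genes tested (median -0.64), 5 of 5 lymphocyte genes (median -1.12), 5 of 5 dendritic cell genes (median -0.36) and 5 of 7 pan-leukocyte genes (median -1.26), while the 23 peripheral nerve genes had medians of 2.79 at 4 h and 3.93 at 1 h, with 0 genes called in each list by edgeR. Smooth muscle genes leaned the other way at 4 h: 0 of 12 were lower (median 0.40, 0 called by edgeR). At 1 h all 12 were lower (median -0.38, 0 called). By the unadjusted p under 0.05, 3 endothelial, 1 lymphocyte, 1 dendritic cell, 0 pan-leukocyte, 0 nerve and 0 smooth muscle genes passed at 4 h. Their part in the values of the 10 genes was not tested beyond the fits given further on.

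**Figure D2:**
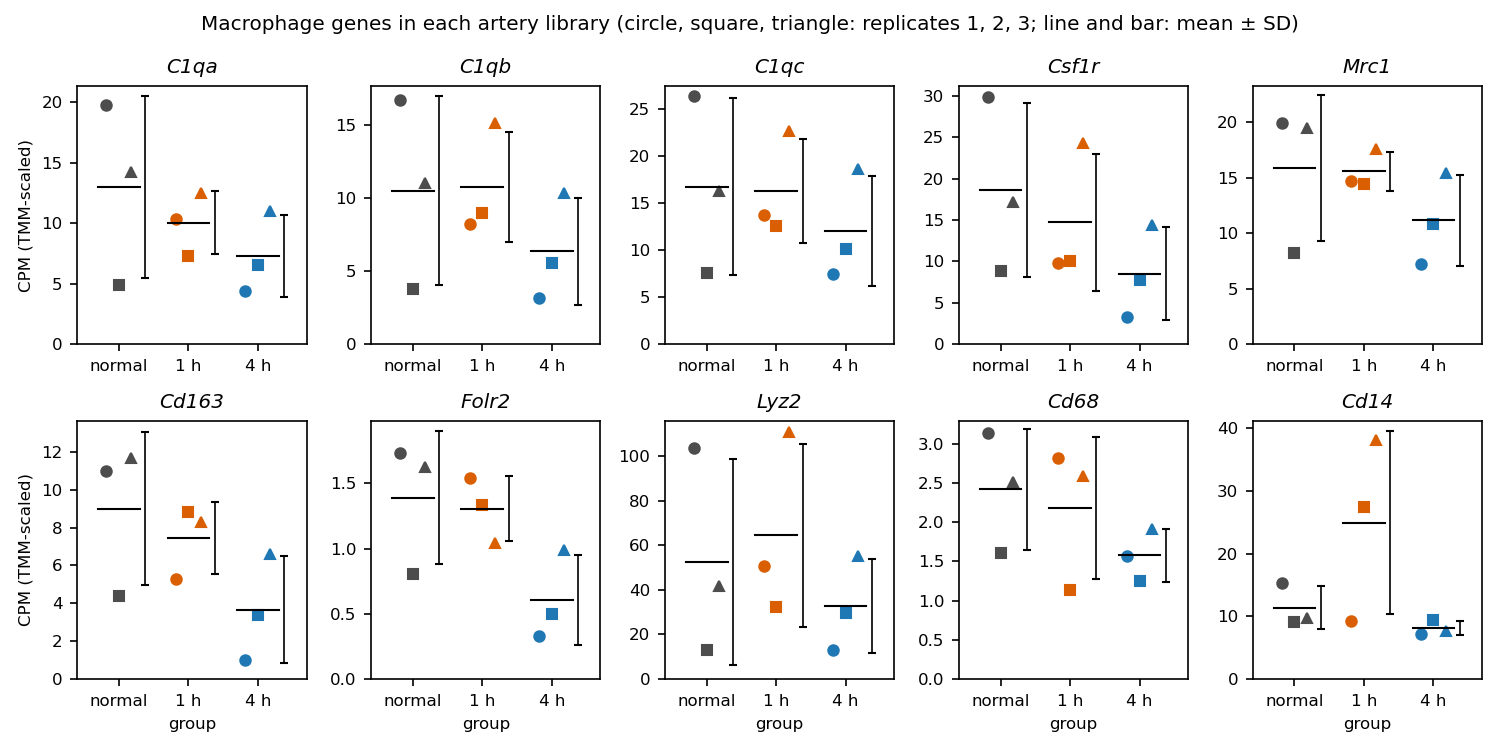
CPM of each macrophage gene in the 9 libraries, in 3 groups (normal, 1 h, 4 h of ischemia), with circles, squares and triangles for replicates 1, 2 and 3, and the group mean (line) with its SD (bar, n = 3). The 3 groups overlap for 9 of the 10 genes in every comparison, and only the Folr2 levels at 4 h, 0.33 to 0.99 CPM, lie below all those at 1 h, 1.04 to 1.54 CPM.

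C1qa, C1qb and C1qc encode the 3 chains of C1q, which starts the classical complement pathway and tags debris and dying cells for uptake. The genes lie side by side in the RefSeq annotation of assembly GRCr8, in the order C1qb, C1qc and C1qa, with 0 other genes between them. Because they varied almost as one, the promoters of this cluster are shown, each from 250 bases before to 50 bases after the annotated start, from RefSeq (GRCr8), read 5′ to 3′ on the gene's strand. Capitals mark GAGGAA on either strand (TTCCTC when read on the gene's strand), the core letters bound by PU.1, a transcription factor that macrophages depend on. C1qc has no entry.
C1qb, chr5:154407778-154408077, minus strand: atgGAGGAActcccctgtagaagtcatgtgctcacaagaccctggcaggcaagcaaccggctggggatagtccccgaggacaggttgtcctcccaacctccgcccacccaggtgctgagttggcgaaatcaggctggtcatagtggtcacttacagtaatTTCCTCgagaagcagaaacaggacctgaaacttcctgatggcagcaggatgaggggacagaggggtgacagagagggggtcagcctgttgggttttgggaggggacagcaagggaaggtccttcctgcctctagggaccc
C1qa, chr5:154419884-154420183, minus strand: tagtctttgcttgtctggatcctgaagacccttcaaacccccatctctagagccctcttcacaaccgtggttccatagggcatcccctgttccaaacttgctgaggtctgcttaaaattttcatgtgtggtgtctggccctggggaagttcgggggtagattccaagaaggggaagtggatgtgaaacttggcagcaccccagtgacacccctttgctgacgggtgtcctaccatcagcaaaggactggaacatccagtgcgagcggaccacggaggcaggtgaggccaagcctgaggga
The C1qb sequence held GAGGAA at 2 places, first bases at -247 and -90 from the start, and the C1qa sequence at 0 places. Of the 9 genes with an entry, 6 held these letters at least at 1 place (C1qb, Lyz2, Cd68, Mrc1, Cd14 and Csf1r), and 27.6% of 33469 rat promoters did. The TATA box letters TATAAA were in 0 of the 9 and in 14.2% of all promoters. The AP-1 letters TGAGTCA were in 1 of the 9, Cd68, at 2 places, and in 4.63% of all promoters. The 3 motifs were sought on both strands and do not overlap each other in their letters. These are matches of letters only, and no binding was measured.

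C1qa was at 19.8, 4.89 and 14.3 CPM in normal replicates 1, 2 and 3, at 10.4, 7.29 and 12.5 CPM at 1 h, and at 4.38, 6.55 and 11.0 CPM at 4 h. The normal libraries alone spanned nearly the whole range, and the groups overlapped. The log2 fold change was -0.37 (SE 0.53, adjusted p = 0.721, edgeR) at 1 h and -0.83 (SE 0.53, adjusted p = 0.555) at 4 h. C1qb was at 16.7, 3.80 and 11.0 CPM in normal SMAs, at 8.23, 8.96 and 15.1 CPM at 1 h, and at 3.14, 5.56 and 10.4 CPM at 4 h. Again the same normal and 4 h libraries were low, and the log2 fold change was 0.04 (SE 0.59) at 1 h and -0.72 (SE 0.60, adjusted p = 0.636, edgeR) at 4 h. C1qc was at 26.4, 7.59 and 16.2 CPM in normal SMAs, at 13.7, 12.6 and 22.6 CPM at 1 h, and at 7.44, 10.1 and 18.6 CPM at 4 h. Its log2 fold change was -0.04 (SE 0.50) at 1 h and -0.47 (SE 0.51) at 4 h. The 95% interval for C1qa at 4 h ran from -2.04 to 0.39 on the log2 scale, which takes in a large decrease and a small increase alike.

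What the 3 chains shared was their course over libraries. Their pairwise Pearson r of log2 CPM over 9 libraries was 0.944 to 0.979 (Spearman rho 0.95 to 0.967; adjusted p 0.000434 to 0.0011 and 0.00144, exact permutation tests over 45 pairs). Without the 2 libraries farthest from the median of the pair's first gene, r was still 0.868 to 0.965. The ratio of one chain to another spanned at most 1.71-fold over the libraries, while each chain itself spanned 3.55-fold to 5.31-fold.

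Csf1r encodes the receptor for CSF1 and IL-34, on which macrophages depend for survival. It was at 29.8, 8.90 and 17.1 CPM in normal SMAs, at 9.83, 10.1 and 24.3 CPM at 1 h, and at 3.31, 7.71 and 14.5 CPM at 4 h. Means were 18.6 ± 10.5, 14.7 ± 8.26 and 8.49 ± 5.62 CPM (SD, n = 3 each), and 4 h replicate 1 was the lowest of all libraries. The log2 fold change was -1.13 at 4 h (SE 0.64, 95% interval -2.60 to 0.34, adjusted p = 0.511, edgeR) and -0.34 at 1 h (SE 0.63, adjusted p = 0.790).

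Mrc1, Cd163 and Folr2 encode uptake receptors of resident macrophages. Mrc1, the mannose receptor, binds sugars on glycoproteins, and was at 19.9, 8.25 and 19.4 CPM in normal SMAs, at 14.6, 14.4 and 17.6 CPM at 1 h, and at 7.19, 10.9 and 15.4 CPM at 4 h. The groups overlapped, and 1 h levels were the most even of the 10 genes' groups relative to their mean, 15.6 ± 1.75 CPM. The log2 fold change was -0.03 (SE 0.39) at 1 h and -0.51 (SE 0.39, adjusted p = 0.609, edgeR) at 4 h. Ranked over the 9 libraries, Mrc1 and C1qa stood in the same order (Spearman rho 1.0, Pearson r 0.954, adjusted p = 0.000248 and 0.000124, exact permutation).

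Cd163 encodes the receptor that clears haemoglobin bound to haptoglobin. It was at 11.0, 4.38 and 11.7 CPM in normal SMAs, at 5.28, 8.82 and 8.29 CPM at 1 h, and at 0.99, 3.40 and 6.60 CPM at 4 h. The level in 4 h replicate 1 rests on 12 counts, and the spread over libraries, 11.8-fold, was the widest of the 10 genes. Its log2 fold change at 4 h, -1.29 (SE 0.65, 95% interval -2.77 to 0.19, adjusted p = 0.463, edgeR), was the largest in size of the 10, and it did not pass the test. Normal replicate 2 lay within the 4 h levels. At 1 h the log2 fold change was -0.27 (SE 0.63).

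Folr2 encodes a folate receptor of resident macrophages. It was at 1.74, 0.80 and 1.62 CPM in normal SMAs, at 1.54, 1.34 and 1.04 CPM at 1 h, and at 0.33, 0.50 and 0.99 CPM at 4 h, which are 4 to 31 counts per library. All 3 levels at 4 h lay below all 3 at 1 h, as for 3.04% of all genes tested, and this is the only such separation among the 10 genes in these 3 comparisons. Separation in either direction was found for 0 of 10 members at 1 h and at 4 h against normal, against 26.3% and 18.7% of all genes. The log2 fold change was -1.17 at 4 h against normal (SE 0.54, adjusted p = 0.428, edgeR) and -1.08 at 4 h against 1 h (SE 0.54, adjusted p = 0.856).

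Lyz2 encodes lysozyme, which cuts bacterial cell walls, and Cd68 encodes a glycoprotein of late endosomes and lysosomes. Lyz2 was at 103.4, 13.1 and 41.5 CPM in normal SMAs, at 50.6, 32.3 and 110.5 CPM at 1 h, and at 13.1, 29.8 and 55.2 CPM at 4 h. It was the highest in normal replicate 1 and 1 h replicate 3, the libraries with the most lymphocyte transcripts, and the groups overlapped widely. The log2 fold change was 0.29 (SE 0.79, adjusted p = 0.860, edgeR) at 1 h and -0.69 (SE 0.79, adjusted p = 0.742) at 4 h. Cd68 was at 3.14, 1.61 and 2.51 CPM in normal SMAs, at 2.81, 1.14 and 2.58 CPM at 1 h, and at 1.57, 1.24 and 1.91 CPM at 4 h, which are 15 to 56 counts per library. It spanned the least, 2.76-fold over libraries, and its log2 fold change was -0.15 (SE 0.45) at 1 h and -0.61 (SE 0.46, adjusted p = 0.600, edgeR) at 4 h.

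Cd14, the co-receptor that hands lipopolysaccharide to TLR4, took its own course. Its promoter is shown because the gene stood apart from the rest, with capitals as above.
Cd14, chr18:28611109-28611408, minus strand: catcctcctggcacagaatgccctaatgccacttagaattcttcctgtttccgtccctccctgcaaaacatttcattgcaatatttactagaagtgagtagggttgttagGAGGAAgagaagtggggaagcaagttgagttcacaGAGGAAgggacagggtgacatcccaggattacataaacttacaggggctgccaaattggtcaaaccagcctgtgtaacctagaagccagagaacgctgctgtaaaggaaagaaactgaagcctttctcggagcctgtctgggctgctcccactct
These letters stand at 2 places, at -140 and -105 from the start. Cd14 was at 15.3, 9.12 and 9.75 CPM in normal SMAs, at 9.23, 27.5 and 38.1 CPM at 1 h, and at 7.19, 9.37 and 7.73 CPM at 4 h. Of the 1 h libraries, 2 were above every other library and 1 h replicate 1 was in the normal range, so the groups overlapped. The log2 fold change was 1.13 at 1 h against normal (SE 0.47, 95% interval 0.05 to 2.20, unadjusted p = 0.0417, adjusted p = 0.292, edgeR), and -1.62 at 4 h against 1 h (SE 0.48, 95% interval -2.71 to -0.53, unadjusted p = 0.00881, adjusted p = 0.856). The size at 1 h rested on single libraries: it was 0.69 without 1 h replicate 3 (unadjusted p = 0.183, adjusted p = 0.622, edgeR) and 1.52 without 1 h replicate 1 (unadjusted p = 0.00131, adjusted p = 0.169). The unadjusted p was also above 0.05 without normal replicate 2 (0.113), normal replicate 3 (0.110), 1 h replicate 2 (0.0925), 4 h replicate 1 (0.0540) or 4 h replicate 2 (0.0536), all from edgeR. At 4 h against normal it was -0.49 (SE 0.47, adjusted p = 0.681, edgeR).

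**Figure D3:**
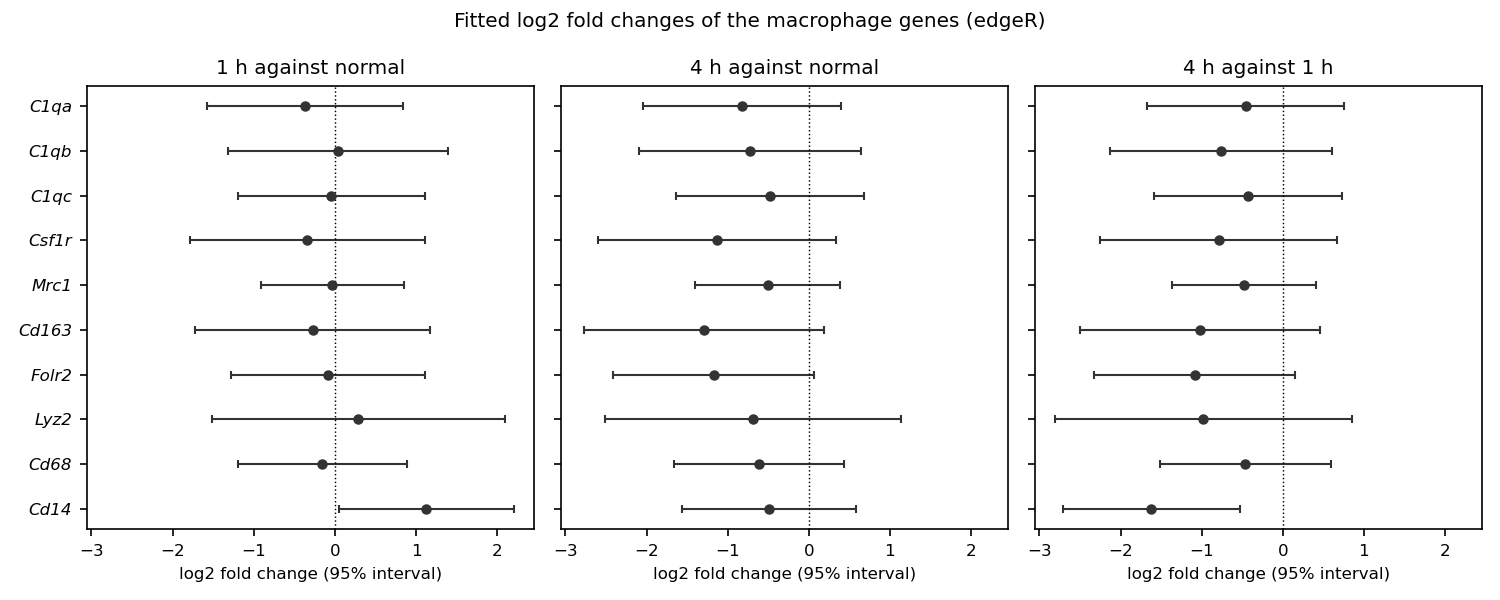
Fitted log2 fold changes of the 10 genes with 95% intervals (edgeR, 9 libraries) for 1 h against normal, 4 h against normal and 4 h against 1 h; the dotted line is no change. Intervals at 4 h against normal include 0 for all 10 genes, and Cd14 is the only gene whose interval leaves 0, above it at 1 h and below it between 1 h and 4 h.

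Over the 9 libraries, 45 pairs of these genes were compared by Pearson and Spearman correlation of log2 CPM (exact permutation tests, two-sided, adjusted over 45). Of the 36 pairs without Cd14, 27 had an adjusted p under 0.05 by Pearson and 29 by Spearman, with r from 0.449 to 0.979. The weakest of these was Cd68 with Cd163, and the strongest C1qb with C1qc. Cd68 moved less closely with the rest. By Pearson it passed only with C1qa (r 0.788, adjusted p = 0.026, exact permutation), and by Spearman with Mrc1, C1qa and C1qc. Its other pairs without Cd14 had an adjusted p of 0.0655 to 0.246 by Pearson (exact permutation). Of the 9 pairs with Cd14, 0 had such a p, and r ran from 0.0782 with Cd68 to 0.582 with C1qb (adjusted p 0.115 to 0.826, exact permutation). Without the 2 libraries farthest from the median of the pair's first gene, in the order listed at the start, r ran from 0.367 to 0.965 without Cd14. With Cd14 it ran from 0.244 to 0.704. Cd14 is the first gene in its pairs with C1qa, C1qb, C1qc and Folr2. There r rose from 0.328, 0.582, 0.491 and 0.374 to 0.704, 0.677, 0.654 and 0.640. The low r of Cd14 in these pairs thus depended on the 2 libraries farthest from its own median. Values of a library share its scaling and its cell make-up, and both enter every pair. With 3 libraries a group, r within a group cannot be tested.

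**Figure D4:**
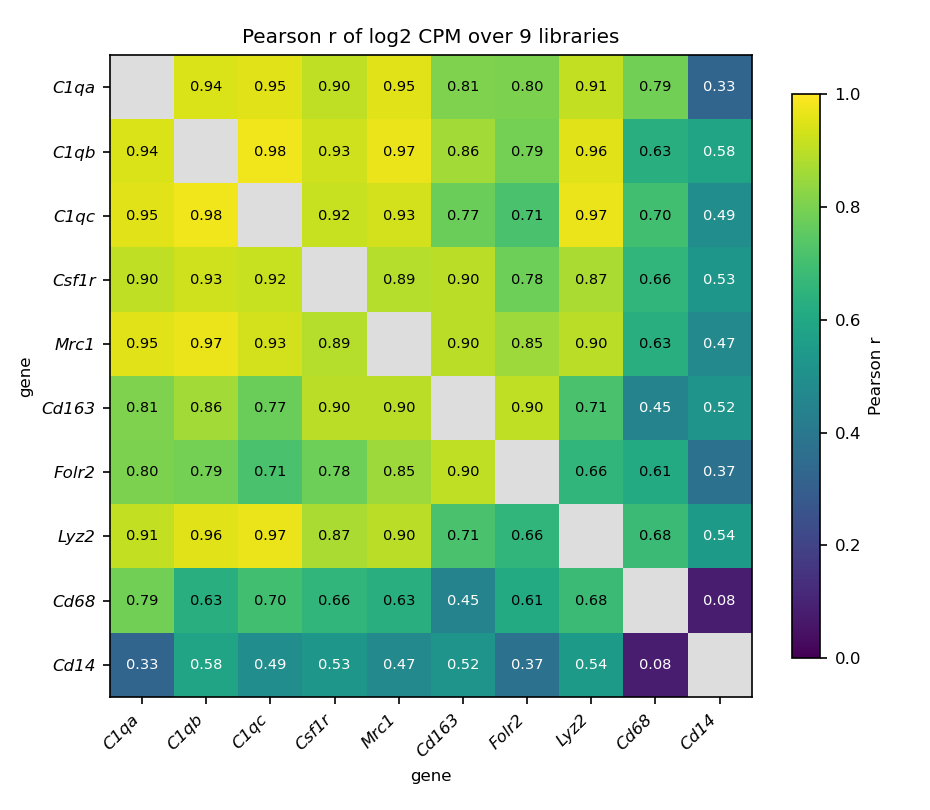
Pearson r of log2 CPM over the 9 libraries for each pair of the 10 genes, as colour and number. The block of the C1q genes, Csf1r, Mrc1 and Lyz2 is at 0.872 or more, and the row of Cd14 runs from 0.0782 to 0.582, with Cd68 and Cd163, at 0.449, the only other pair below 0.582.

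Set against the mean of the 3 C1q genes of the same library, which takes out what moved all of them together, Cd14 was at 0.73, 1.68 and 0.70 of that mean in normal SMAs, at 0.86, 2.86 and 2.28 at 1 h, and at 1.44, 1.26 and 0.58 at 4 h. Replicates 2 and 3 at 1 h were again the highest, but not by more than the spread within groups. Folr2 relative to C1q was 0.0827, 0.148 and 0.117 in normal SMAs, 0.143, 0.139 and 0.0624 at 1 h, and 0.0663, 0.0672 and 0.0743 at 4 h. Cd163 relative to C1q was 0.523, 0.807 and 0.843 in normal SMAs, 0.491, 0.919 and 0.496 at 1 h, and 0.199, 0.459 and 0.495 at 4 h. Csf1r relative to C1q was 1.42, 1.64 and 1.24 in normal SMAs, 0.913, 1.05 and 1.45 at 1 h, and 0.663, 1.04 and 1.08 at 4 h. For these 3 of the 7 genes, Folr2, Cd163 and Csf1r, all values at 4 h lay below all normal values, as they did for 0.808% of all genes set against C1q in the same way. The C1q genes themselves leaned lower at 4 h (log2 fold changes -0.83, -0.72 and -0.47) and varied among the normal libraries, which moves the ratio of every gene. The share over all genes is therefore no measure of how unusual these 3 genes are. These ratios of levels were chosen after values had been seen and were not tested. Mrc1 kept the steadiest ratio of the 7 other genes, 0.95 to 1.52, a span of 1.60-fold.

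**Figure D5:**
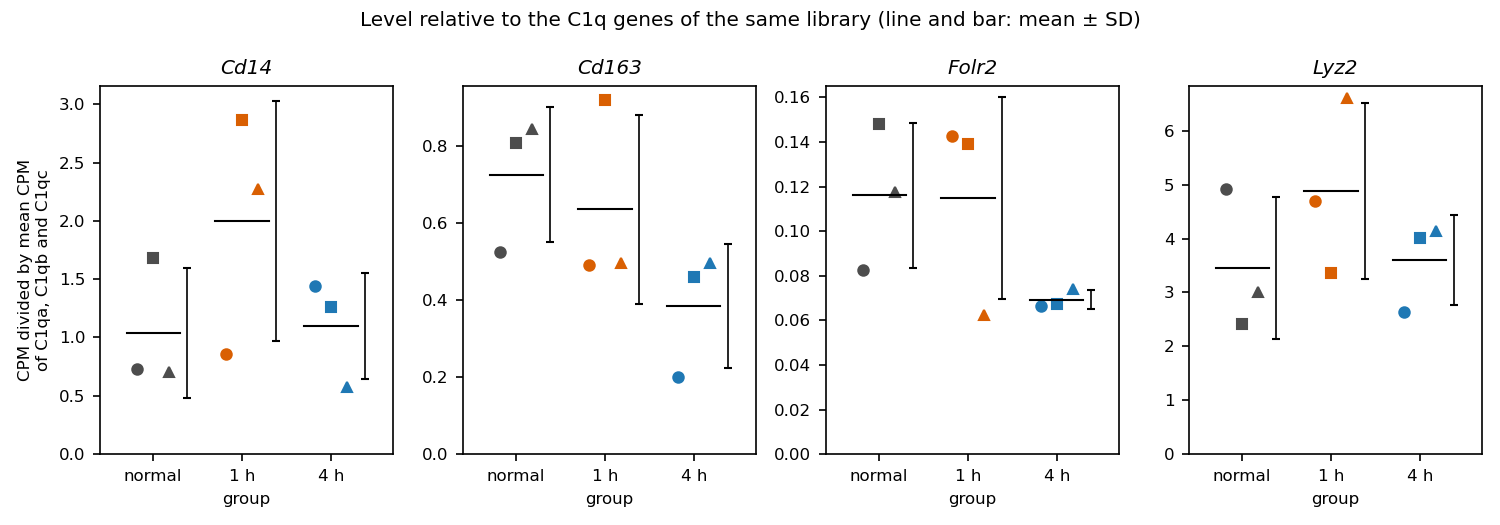
CPM of Cd14, Cd163, Folr2 and Lyz2 divided by the mean CPM of C1qa, C1qb and C1qc in the same library, by group, with circles, squares and triangles for replicates 1, 2 and 3, and the mean with its SD (n = 3). Cd14 reaches 2.86 and 2.28 in 1 h replicates 2 and 3, and Folr2 lies at 0.0663 to 0.0743 in all 4 h libraries.

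Levels of some of the macrophage genes were correlated over libraries with scores of marker genes of other cell types. Cell make-up itself was not measured. Smooth muscle, lymphocyte and peripheral nerve scores were the mean log2 CPM of the 12, 5 and 23 genes of each list that were tested. They were compared with the 10 genes in 30 relations over 9 libraries, by exact permutation tests adjusted over 30. With the smooth muscle score r was -0.897 for Lyz2 to -0.508 for Cd14, and 5 of 10 had an adjusted p under 0.05 (4 by Spearman, rho -0.867 to -0.483). With the lymphocyte score r was 0.574 for Folr2 to 0.884 for Lyz2, and 6 of 10 passed (8 by Spearman, rho 0.567 to 0.95). With the nerve score r was 0.447 for Cd14 to 0.835 for Lyz2, and 4 of 10 passed (1 by Spearman, Lyz2). Without the 2 libraries farthest from the median of the score, r ran from -0.769 to 0.0803, from 0.198 to 0.847 and from 0.252 to 0.590. The 5 genes of the lymphocyte score were Cd4, Cd8a, Lck, Zap70 and Il7r. Rat macrophages also express Cd4, which was at 4.13 to 26.8 CPM, so this score is not of lymphocytes alone.

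Fits that hold these scores, and fits without the libraries highest in lymphocyte genes, showed how the lean at 4 h moved with them. With the smooth muscle score as a term all 10 genes were lower at 4 h than normal, with a median log2 fold change of -0.41. With the lymphocyte score 8 of 10 were lower, with a median of -0.26. Without normal replicate 1 and 1 h replicate 3 together, 9 of 10 were lower, with a median of -0.37. With the nerve score all 10 stayed lower, with a median of -0.67, and 4 had an unadjusted p under 0.05 (Cd163, Csf1r, C1qa and Folr2, adjusted p 0.185 to 0.226, edgeR), as did 16% of all genes in that fit. In that fit 9 of 10 were lower at 1 h as well (median -0.78, against -0.02 over all genes). There 3 of 10 had an unadjusted p under 0.05 (edgeR), as did 10% of all genes. At 4 h against 1 h 3 of 10 were lower in that fit (median 0.04), and 1 of 10 had such a p, as did 1.16% of all genes. The part of cell make-up in these values was not tested further.

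Further markers of macrophages took the same side as the 10 genes. Of 24 listed, 23 were in the table and 19 were tested, and 15 of 19 were lower at 4 h than normal (median log2 fold change -0.61, 0 called). Adgre1, which encodes the F4/80 antigen and stands in the table under its older symbol Emr1, was at 6.33, 1.24 and 3.32 CPM in normal SMAs, at 1.61, 1.94 and 2.52 CPM at 1 h and at 0.66, 1.58 and 1.91 CPM at 4 h. Its highest library was again normal replicate 1. By the smallest unadjusted p, the named genes of this list were Fcgr1a, a high-affinity receptor for IgG, with log2 fold changes of -1.27 (SE 0.60) at 1 h and -1.62 (SE 0.61) at 4 h, Gas6, which bridges dying cells to their uptake receptors, with -0.67 and -0.36, and Ccl24, a chemokine for eosinophils, with -0.55 and -1.54. Their adjusted p ran from 0.277 to 0.583 (edgeR). Not every marker leaned this way: Pf4, which platelets also carry, reached 40.2 CPM in 4 h replicate 2 against 0.92 to 5.10 CPM in the other 8 libraries.

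The genes around these receptors were read from lists by role, none of which holds any of the 10, and 0 genes of any of these lists were called in either direction (edgeR). For the counts by unadjusted p under 0.05 in these lists, the share of all genes tested was 16.7% at 1 h and 12.4% at 4 h against normal (edgeR). Of 8 genes of CSF1 signalling, 7 were tested and 0 had an unadjusted p under 0.05 against normal at either time. Csf1, the ligand of the Csf1r product, was at 35.3, 28.0 and 34.0 CPM in normal SMAs, at 30.0, 48.9 and 43.2 CPM at 1 h and at 25.3, 27.5 and 29.5 CPM at 4 h. Its log2 fold change was 0.33 (SE 0.21, adjusted p = 0.409, edgeR) at 1 h and -0.24 at 4 h, while the adaptor Grb2 was at 0.36 and 0.19 and the phosphatase gene Inpp5d at 0.06 and 0.56.

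Among 10 transcription factors of macrophages, 9 were tested, and 3 higher and 2 lower genes had an unadjusted p under 0.05 at 1 h, and 1 higher and 3 lower at 4 h. Cebpb, which drives inflammatory genes in many cell types, was at 13.7, 32.0 and 32.9 CPM in normal SMAs, at 223, 281 and 111 CPM at 1 h, and at 335, 388 and 193 CPM at 4 h. All 6 ischemic libraries lay above all normal ones, with log2 fold changes of 2.97 (SE 0.49, adjusted p = 0.117, edgeR) and 3.54 (SE 0.50, adjusted p = 0.0614). Id3 was lower in all 6, at 49.4 to 60.2 CPM against 87.6 to 159 CPM in normal SMAs (log2 fold changes -1.07 and -1.03, adjusted p = 0.188 and 0.160, edgeR). Cebpb and Id3 were named for their small p, and groups did not overlap with normal, in either direction, for 26.3% of all genes at 1 h and 18.7% at 4 h. Both genes are active in many cells of the wall, so their levels are not those of macrophages alone.

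For the partners of Cd14, 12 genes of the lipopolysaccharide receptor pathway were tested, and by the unadjusted p under 0.05 there were 1 higher and 2 lower genes at 1 h, and 1 higher and 3 lower genes at 4 h. Tlr4, the receptor itself, was at 5.82, 2.34 and 2.66 CPM in normal SMAs, at 1.20, 1.54 and 2.03 CPM at 1 h, and at 1.32, 1.58 and 0.73 CPM at 4 h. All 6 ischemic libraries lay below all normal ones, with log2 fold changes of -1.18 (SE 0.49, adjusted p = 0.293, edgeR) and -1.58 (SE 0.50, adjusted p = 0.257). Groups did not overlap with normal, in either direction, for 26.3% of all genes at 1 h and 18.7% at 4 h. Of the 1 h libraries, 2 were above normal for Cd14 and all 3 below normal for Tlr4. Ticam1, an adaptor, was at -0.92 and -0.93, and Traf6, a ubiquitin ligase, at 0.96 and 1.22 (adjusted p 0.178 to 0.265, edgeR).

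Of 17 genes of the classical complement pathway, 17 were tested, of which 13 were lower at 4 h (median -0.54). Cd55 and Cd46, which protect cells from complement, took opposite sides at 1 h, with log2 fold changes of 2.19 (SE 0.67) and -0.72 (SE 0.30). C5ar1, the receptor for the C5a fragment, was at 2.63, 0.29 and 1.70 CPM in normal SMAs and at 0.25, 0.25 and 0.59 CPM at 4 h, on few counts (log2 fold change -2.04, adjusted p = 0.347, edgeR). For the ligands of Cd163, 11 of 12 genes of haemoglobin and iron handling were tested, of which 2 were higher and 0 lower by the unadjusted p under 0.05 at 1 h. Hmox1, which degrades haem, was at 4.26, 1.90 and 1.26 CPM in normal SMAs, at 9.97, 35.4 and 22.0 CPM at 1 h, and at 18.3, 10.9 and 9.64 CPM at 4 h. The Hmox1 level was above normal in all 6 ischemic libraries, where 26.3% of all genes at 1 h and 18.7% at 4 h did not overlap with normal in either direction. Its log2 fold change was 3.17 (SE 0.61, adjusted p = 0.145, edgeR) at 1 h and 2.37 (SE 0.60, adjusted p = 0.171) at 4 h, and that of Tfrc, the transferrin receptor, 2.31 and 1.62.

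Other uptake receptors were mixed. Of 15 scavenger and lectin receptors, 12 were tested and 10 were lower at 4 h than normal (median -0.44). Stab1, a scavenger receptor of macrophages and endothelium, had log2 fold changes of -0.89 (SE 0.27) and -0.97 (SE 0.27), and Lyve1, a hyaluronan receptor of lymphatic vessels and of some artery macrophages, of 1.04 (SE 0.44) and 1.23 (SE 0.44), with adjusted p from 0.211 to 0.307 (edgeR). Of 14 lysosome genes, 14 were tested, with medians of 0.13 at 1 h and -0.04 at 4 h. Ctsd, Lgmn, Npc2 and Grn, all of lysosomes, had log2 fold changes of 0.47, 0.61, 0.28 and -0.39 at 1 h and of 0.25, 0.28, 0.28 and -0.36 at 4 h.

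Genes of recruited monocytes and acute inflammation were read as 1 list. Of 18 listed, 16 were in the table and 10 tested, of which 9 were higher at 1 h and 7 at 4 h (0 called). By the unadjusted p under 0.05, 3 were higher at 1 h (Ccl2, Cxcl2 and Il6, all cytokines), and 2 higher and 1 lower at 4 h. The lower one was Arg1, an enzyme of arginine use, at -1.33, and the monocyte markers Plac8 and Ly6c were at -0.34 and -0.19 at 4 h. Ccl2, which draws monocytes, was at 4.03, 3.07 and 3.18 CPM in normal SMAs, at 18.4, 32.4 and 60.2 CPM at 1 h, and at 2.81, 2.49 and 27.6 CPM at 4 h. Il6 was at 0, 0.44 and 0.44 CPM, then at 2.61, 47.6 and 135 CPM, then at 0.83, 2.16 and 80.9 CPM, and Cxcl2, a neutrophil chemokine, at 0, 0 and 0.07 CPM, then at 8.96, 17.4 and 22.7 CPM, then at 1.90, 3.98 and 25.2 CPM. The 1 h libraries with the most Cd14 were those with the most Ccl2, Il6 and Cxcl2. In 4 h replicate 3, however, Ccl2, Il6 and Cxcl2 were high while Cd14, at 7.73 CPM, was below all 3 normal levels.

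Neutrophils, which carry Cd14 and Lyz2 as well, left few transcripts. Of 11 neutrophil genes, 2 were tested, and Elane, Fpr1 and Fpr2 were at 0 counts in all 9 libraries. Lcn2, which many injured cells also make, was at 9.91, 7.01 and 5.91 CPM in normal SMAs, at 12.0, 67.3 and 77.8 CPM at 1 h, and at 2.81 to 47.7 CPM at 4 h, and gave most of the list's sum in every library. Of lymphocyte genes 5 of 13 were tested. Ptprc, the pan-leukocyte marker CD45, was at 34.9 CPM in normal replicate 1, at 42.1 CPM in 1 h replicate 3 and at 0.50 to 4.48 CPM in the others. The part of other leukocytes in Lyz2 and Cd14 was not tested. Paralogs of Folr2, Cd163 and Mrc1 could share reads with them, which was not tested. Folr1 reached 0.54 CPM at most, in 1 h replicate 1, where Folr2 was at 1.54 CPM. Cd163l1 reached 0.56 CPM at most. Mrc2 lay between 8.23 and 17.6 CPM, and Mrc1 between 7.19 and 19.9 CPM. Lyz1, a paralog of Lyz2, was not among the gene symbols, so reads shared with Lyz2 could not be looked at.

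Among the genes most like the 10 in their course, by Pearson r with the mean of their centred log2 CPM over 9 libraries among 11272 genes averaging at least 5 CPM, were Ctss (0.942), Tril (0.925), Sorcs2 (0.922), Setd7 (0.922), Card6 (0.921), Cstf2t (0.919) and Slc26a2 (0.916). Ctss, which encodes the lysosomal protease cathepsin S, was at 14.2, 5.04 and 9.09 CPM in normal SMAs, at 7.69, 5.95 and 12.6 CPM at 1 h, and at 2.15, 6.05 and 10.8 CPM at 4 h. It was the highest in normal replicate 1, as were 7 of the 10 genes, and the lowest in 4 h replicate 1, as were 8. These values share the libraries' scaling and cell make-up, and are given as a description.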

How the data were processed

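The authors deposited raw counts per gene symbol for 9 SMA libraries. Per the labels, Trizol RNA was filtered on its integrity, made into Illumina libraries and sequenced on a HiSeq X series instrument, and the submitters' processing notes name HISAT2 without a version. The counting program, genome build, annotation and strand setting are not given in the sources used here, and the study's methods also describe microarrays, which do not give such counts. Reads of overlapping genes may therefore be split or shared in ways that cannot be checked. Whether same-numbered libraries came from the same rats is not settled by the sources. The p-values of the main fit set group differences against the spread between these libraries, taken as unpaired. They would not match the design if the libraries were paired.

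Counts were analysed in R 4.3.3 with edgeR 4.0.16 (filterByExpr, TMM, quasi-likelihood F-test, all 9 libraries in 1 fit, group as the only term). This tested 15482 of 37203 symbols, with a common biological coefficient of variation of 51.6%. DESeq2 1.42.0 was an alternative. Log2 CPM used a prior count of 2. The scripts were tested on simulated data with known changes. No library was a copy of another (lowest chi-square per degree of freedom 31.7). The members, lists and tests were chosen with earlier results of these data known. From each list of pathway, macrophage and inflammation genes, the genes with the 2 smallest unadjusted p in each contrast against normal were named. Those of other cell types were named only where a result touched them, and some genes that the rules picked are not reported here; Adgre1, Pf4, Ptprc, Elane, Fpr1, Fpr2, Arg1, Plac8 and Ly6c were added after their values were seen. Gene order and promoters are from RefSeq (GRCr8), whose build may differ from that of the counts. Lists of dendritic cell, mast cell, endothelial, fibroblast and adipocyte genes were tested too, with 0 genes called in each. Alternatives were other scaling, no filter, DESeq2, only the groups compared, the replicate number as a block, cell type scores as covariates and leaving out libraries.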

Additional observations from a re-analysis of the deposited data

How the results depend on the processing

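The count of macrophage genes called was 0 in every comparison under all alternatives that were run, the replicate block and DESeq2 included, so what moved was the sign of changes that passed no test. Values that follow are log2 fold changes. Scaled by library size alone the sign changed for Mrc1 0.014 (1 h against normal). With the replicate number as a block the sign changed for Mrc1 0.018 (1 h against normal). In the fit with the nerve score the sign changed for Lyz2 -0.82, C1qb -0.78 (1 h against normal) and Cd68 0.034, Mrc1 0.040, Csf1r 0.0088, Lyz2 0.29, C1qa 0.35, C1qb 0.044, C1qc 0.30 (4 h against 1 h). In the fit with the smooth muscle score the sign changed for C1qb -0.051 (1 h against normal). In the fit with the lymphocyte score the sign changed for Lyz2 0.43, C1qc 0.12 (4 h against normal) and Csf1r 0.010, Lyz2 0.16, C1qa 0.10, C1qc 0.18 (4 h against 1 h). Without normal replicate 1 and 1 h replicate 3 the sign changed for Mrc1 0.019, C1qc 0.088, Folr2 0.19 (1 h against normal) and Lyz2 0.23 (4 h against normal). Leaving out 1 library at a time gave, at 1 h against normal, Cd68 -0.39 to 0.15, Mrc1 -0.35 to 0.17, Csf1r -0.91 to 0.18, Lyz2 -0.35 to 1.24, C1qa -0.77 to 0.069, C1qb -0.36 to 0.54, C1qc -0.39 to 0.45, Folr2 -0.37 to 0.10, and at 4 h against normal, Lyz2 -1.29 to 0.26 and C1qc -0.93 to 0.016; signs of the other genes held at 4 h. With library size only, all genes tested had a median of -0.15 at 4 h against normal and -0.24 at 4 h against 1 h, against -0.84 and -0.94 for the 10 genes.

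The deviations of same-numbered libraries from their group means correlated at -0.65 to 0.66 (9 correlations, not all above 0.1), so the numbers were not taken to pair the libraries. With the replicate block the medians of the 10 genes were -0.02, -0.64 and -0.78 at 1 h against normal, 4 h against normal and 4 h against 1 h, and 0 of the 10 were called. Over all genes, DESeq2 called 644 at 1 h and 554 at 4 h against normal, of 23771, where edgeR called 9 and 14 of 15482; the cause was not tested. With the nerve and smooth muscle scores edgeR called 125 and 85 at 4 h. The fits with the lymphocyte score and without both lymphocyte-rich libraries were added after the data had been seen. Where a library is left out, the remaining pair of its group is assumed to vary like the others. Low counts limit Folr2 (4 to 31 counts) and Cd68 (15 to 56 counts).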
